A study of Mus musculus with 30 samples.

Results

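The genes described here are 8 genes that mark lung epithelium in a transitional repair state: Sprr1a, Krt7, Krt8, Krt18, Krt19, Cldn4, Areg and Sfn. The group was proposed with earlier results of these data in view, and the study lists Sprr1a for its differences with age, so those differences are described below without a test. The arrays of those differences also serve in other comparisons, where the p-values of Sprr1a are not independent of this listing. Within each gene the probe set was chosen by its mean level over the 30 arrays: of the probe sets annotated to that gene alone, the highest was taken. Of the 8 genes 7 were measured, out of 22180 measured in all. No probe set is annotated to Areg in the platform table used, so this ligand of the EGF receptor was not analysed here.

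When the alveolus is injured, type 2 cells and airway progenitors spread over the bare surface and pass through a transitional state before they become thin type 1 cells. Cells in this state raise simple keratins, which build the flexible filaments of single-layered epithelia, together with Cldn4, which seals tight junctions, and stress genes of the p53 and AP-1 responses. Sprr1a is a small proline-rich protein that is crosslinked under the membrane of cornifying squamous cells, and it is also induced in injured epithelia and other stressed tissues. Sfn (14-3-3 sigma) is an epithelial target of p53 that holds back the cell cycle. Since squamous epithelium of the esophagus and skin makes Sprr1a too, the level of this gene in a piece of lung can only be read beside squamous keratins such as Krt4 and Krt13.

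The study followed lung fibrosis in C57BL/6 mice that lack Zmpste24, the protease that matures prelamin A and whose loss gives accelerated aging, and in wild type (WT) mice. Lungs were taken 21 days after one oropharyngeal instillation of bleomycin, which injures the alveolar epithelium, or of saline, and whole lung RNA was hybridized to 30 arrays, 3 for each of 10 groups. Set 1 of the arrays held old Zmpste24 deficient lungs (16 weeks by the labels) with bleomycin and with saline, WT lungs with bleomycin and with saline that carry an age of 16 weeks, and young Zmpste24 deficient lungs (7 weeks) with saline. Set 2 held young Zmpste24 deficient lungs (7 weeks) with bleomycin and, a second time, with saline, old WT lungs (82 weeks) with bleomycin and with saline, and young WT lungs (7 weeks) with saline. The WT arrays of set 1 are titled young and described as old, so their age is in doubt, and they are called 16-week WT below. What a set stands for beyond its number is not given in the labels.

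Array medians lay between 5.95 and 6.19 on the log2 scale of the deposited values. Old Zmpste24 deficient saline replicate 3 correlated least with the other arrays (mean r = 0.944), and all others had a mean r of 0.968 to 0.981. The lung label was borne out by type 2 cell genes (surfactant proteins and related genes), whose mean over 11 genes lay between 10.60 and 11.76 in every array. Zmpste24 itself stood near the WT level in 3 arrays labelled Zmpste24 deficient, all of them young saline lungs: set 1 replicate 2 (7.55) and set 2 replicates 2 and 3 (7.60 and 7.93), where the 3 young WT arrays had 8.53, 7.93 and 8.46. Each comparison below was tested in limma over all 22180 genes with Benjamini-Hochberg adjustment. A gene passed when its adjusted p was under 0.05, and values that follow ± are SDs over 3 arrays. The p-values measure the spread between arrays within groups, pooled for each gene over all 10 groups. For Sprr1a this pooled SD was 0.63, where the SDs of single groups ran from 0.06 to 1.35. In whole lung RNA fewer cells of a type and less RNA per cell cannot be told apart.

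Sprr1a and Cldn4 moved most between the groups, and their promoters are shown because they are also the members in which a motif of AP-1, the factor of Fos and Jun, was found. Both stretches are the 250 bases before the RefSeq start of the gene on build GRCm38.p6, on the minus strand, at chr3:92485882-92486131 for Sprr1a and chr5:134946935-134947184 for Cldn4. Capitals mark the AP-1 motif TGANTCA, which reads alike on both strands, and the TATA box TATAAA on the strand of the gene.
Sprr1a: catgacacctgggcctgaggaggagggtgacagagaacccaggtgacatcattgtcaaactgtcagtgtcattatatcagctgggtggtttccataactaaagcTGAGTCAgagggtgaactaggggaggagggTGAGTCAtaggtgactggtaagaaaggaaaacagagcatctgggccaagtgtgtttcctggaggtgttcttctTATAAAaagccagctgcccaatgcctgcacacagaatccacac
Cldn4: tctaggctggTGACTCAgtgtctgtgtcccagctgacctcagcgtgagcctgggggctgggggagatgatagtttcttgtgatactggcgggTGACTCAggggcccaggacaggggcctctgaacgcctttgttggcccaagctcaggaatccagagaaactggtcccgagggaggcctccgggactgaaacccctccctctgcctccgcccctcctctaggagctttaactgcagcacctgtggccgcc
The AP-1 motif begins 146 and 116 bases before the start of Sprr1a, and 240 and 158 bases before that of Cldn4. Of 32851 promoters of this length, 6.75% hold the motif at least once. The same windows of Krt7, Krt8, Krt18, Areg and Sfn hold none, and Krt19 had no entry in the promoter table used. The TATA box of Sprr1a begins 43 bases before the start, and 7.59% of promoters hold one. A match is a description of the letters, and the motif was chosen after the levels were known.

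Across the 10 groups Sprr1a changed most and Sfn least. The group means of Sprr1a spanned 3.04 (log2), more than 99.7% of all genes did, and those of Cldn4 spanned 1.91, where the median gene spanned 0.50. The keratins spanned 1.06 (Krt18), 1.05 (Krt19), 0.89 (Krt8) and 0.72 (Krt7), and Sfn spanned 0.36. The old WT saline lungs had the highest mean of Sprr1a, Cldn4, Krt8, Krt18 and Sfn, and the young Zmpste24 deficient bleomycin lungs had the highest mean of Krt7 and Krt19.

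**Figure D1:**
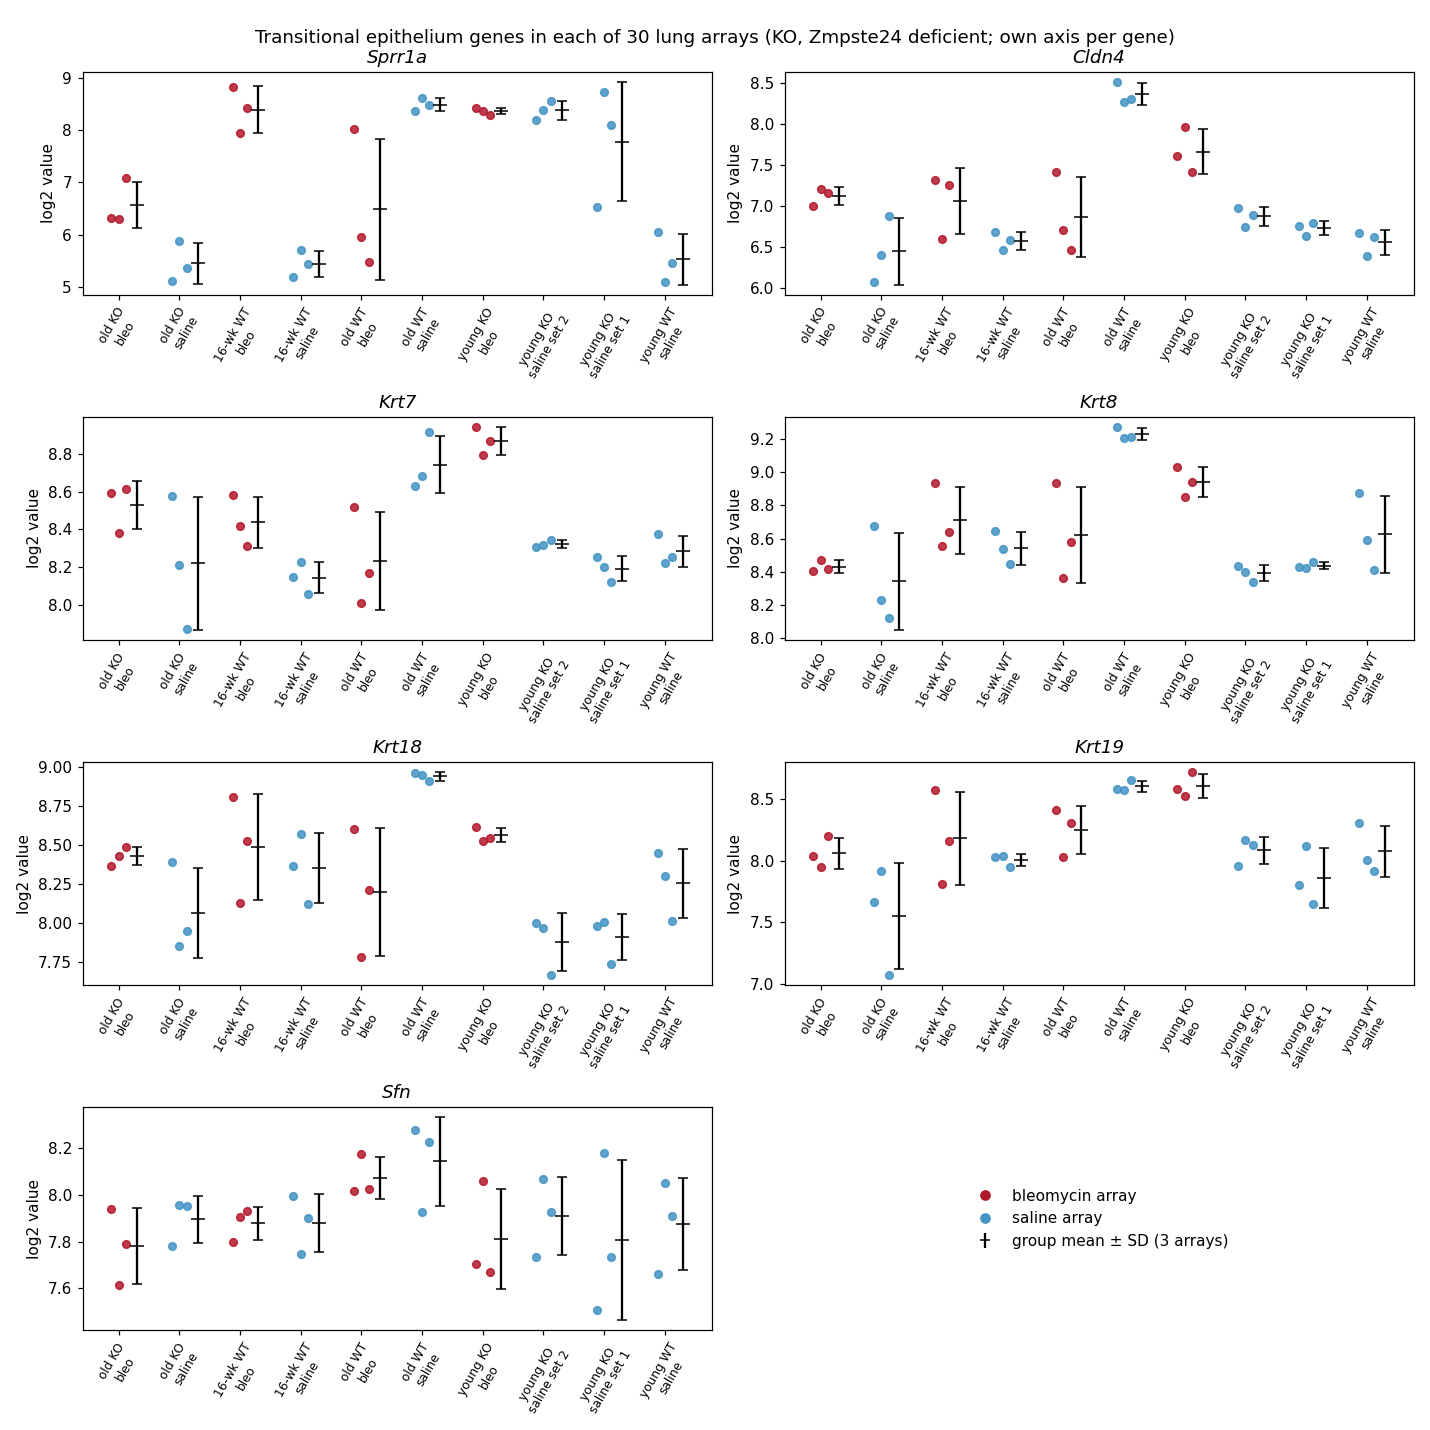
Log2 value of each of the 7 measured genes in each of the 30 arrays, by group (red, bleomycin; blue, saline; black, mean and SD of 3 arrays), each gene on its own axis. The old WT saline arrays stand above all other arrays for Krt8 and Krt18, between 9.21 and 9.27 for Krt8. For Sfn, groups next to each other in order of their means overlap. Its old Zmpste24 deficient bleomycin arrays (at most 7.94) lie under its old WT bleomycin arrays (at least 8.02).

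The order of the groups differed between Sprr1a and the other members. For Sprr1a, 4 groups with overlapping arrays were at the top: old WT saline (8.49 ± 0.13), 16-week WT bleomycin (8.39 ± 0.44), young Zmpste24 deficient saline of set 2 (8.38 ± 0.18) and young Zmpste24 deficient bleomycin (8.36 ± 0.06). The young Zmpste24 deficient saline lungs of set 1 followed at 7.78 ± 1.14, then old Zmpste24 deficient bleomycin at 6.57 ± 0.44 and old WT bleomycin at 6.49 ± 1.35. The lowest 3 groups, young WT saline (5.53 ± 0.48), old Zmpste24 deficient saline (5.46 ± 0.39) and 16-week WT saline (5.45 ± 0.25), also overlap. High groups included saline and bleomycin lungs and lungs of both genotypes.

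For Cldn4 every array of the 2 highest groups lay above all arrays of the other groups, by a very narrow margin for the second. The lowest young Zmpste24 deficient bleomycin array had 7.410, and the highest old WT bleomycin array had 7.406. Old WT saline lungs had 8.36 ± 0.13, and their lowest array was above the highest of the young Zmpste24 deficient bleomycin lungs (7.66 ± 0.27), which in turn lay above every array of the third group, old Zmpste24 deficient bleomycin (7.12 ± 0.11). From there down to old Zmpste24 deficient saline (6.45 ± 0.41) neighbours overlapped. Krt8 and Krt18 had the same 2 groups on top, old WT saline (9.23 ± 0.04 and 8.94 ± 0.03) and young Zmpste24 deficient bleomycin (8.94 ± 0.09 and 8.56 ± 0.04). For Krt7 and Krt19 these 2 groups overlapped each other, at 8.74 ± 0.15 in old WT saline and 8.87 ± 0.07 in young Zmpste24 deficient bleomycin for Krt7, and at 8.60 ± 0.04 in old WT saline and 8.60 ± 0.10 in young Zmpste24 deficient bleomycin for Krt19.

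The first question was what age does in WT lungs without bleomycin. Old WT saline lungs held more Cldn4 and more of the simple keratins Krt7, Krt8 and Krt18 than young WT saline lungs, and Sprr1a showed the widest gap. Both groups lie in set 2. Of the 6 members other than Sprr1a 4 passed the test, all of them higher in old lungs, where 8.12% of all genes passed in either direction and 4.98% passed as higher. Over all genes 1104 were higher and 698 lower, and with quantile normalization 1121 were higher and 1102 lower. Sprr1a is described without a p-value.

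Sprr1a had 8.36, 8.61 and 8.48 in the old WT arrays, against 6.05, 5.10 and 5.46 in the young WT arrays. Every old array was more than 2 log2 units above every young one, and the means differed by 2.95 (standard error 0.46), a fold of 7.74. Cldn4, the claudin of tight junctions, had 8.51, 8.26 and 8.31 in old arrays, against 6.66, 6.39 and 6.61 in young arrays. It rose by 1.81 (standard error 0.21, adjusted p = 3.48e-06 in limma), 3.50-fold, and it passed under all 16 alternatives. Krt8, the type II keratin that pairs with Krt18, had 9.27, 9.21 and 9.22 in old arrays, against 8.87, 8.59 and 8.41 in young arrays. It rose by 0.61 (adjusted p = 0.00774), and Krt18 rose by 0.69 (adjusted p = 0.0169). Without young replicate 3 both calls were lost, with adjusted p of 0.0702 for Krt8 and 0.112 for Krt18.

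Krt7, the partner keratin of simple ducts and airway, had 8.63, 8.68 and 8.91 in old arrays, against 8.38, 8.22 and 8.25 in young arrays, and rose by 0.46 (adjusted p = 0.0440). This call was lost on leaving out any single array of the 6 (0.37 without old replicate 3, 0.51 without old replicate 1), and that of Krt18 also without old replicate 1 or 2. Krt19, a small keratin of progenitor and ductal cells, did not pass (0.53, adjusted p = 0.0708), although its old arrays all lie above its young ones, as for 6 of the 7 members and 17.3% of all genes. Sfn had 8.28, 7.93 and 8.23 in old arrays and 7.66, 8.05 and 7.91 in young arrays, which overlap.

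Some genes of other cells moved with this comparison. Gpnmb, a glycoprotein of lipid-laden macrophages, stood at 10.90, 11.24 and 11.25 in old WT bleomycin arrays and at 10.87, 10.82 and 10.92 in old WT saline arrays, against 7.60, 7.01 and 8.18 in young WT saline arrays. Thus the old WT saline lungs held it near the level of the old WT bleomycin lungs. The other bleomycin arrays had 9.87 to 10.92 in 16-week WT, 10.76 to 11.10 in young Zmpste24 deficient and 8.65 to 9.26 in old Zmpste24 deficient lungs. Squamous genes had a list mean over 20 genes of 5.66 to 5.89 in old and 5.58 to 5.67 in young arrays, of which 1 rose, the crosslinking enzyme Tgm1 (1.12, adjusted p = 0.000208), and Krt4 was between 5.01 and 5.55 in old and 4.85 and 5.13 in young arrays. Cardiac muscle genes fell (8 of 9, where 8.12% of all genes passed), with list means of 7.24 to 7.32 in old and 8.24 to 9.09 in young arrays. The part of these tissues in the result was not tested.

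The same old WT saline arrays are one side of the next question, how the genotypes differ in old lungs. The comparison crosses the sets, so genotype and set cannot be told apart in it except through the young Zmpste24 deficient saline lungs, which lie in both. It also sets lungs of 16 weeks against lungs of 82 weeks by the labels, so genotype and age cannot be told apart in it. In old Zmpste24 deficient saline lungs 6 of 7 members were lower than in old WT saline lungs, all but Sfn, where 13.7% of all genes passed and 10.2% passed as lower. Over all genes 764 were higher and 2266 lower, and with quantile normalization 1484 were higher and 1713 lower. Sprr1a had 5.12, 5.89 and 5.36 in old Zmpste24 deficient saline arrays, against 8.36, 8.61 and 8.48 in old WT saline arrays, and fell by 3.03 (standard error 0.46, adjusted p = 6.83e-05). The old WT arrays are those by which the study lists Sprr1a, so its call among the 6 is no independent test. Cldn4 had 6.07, 6.39 and 6.87 in old Zmpste24 deficient arrays, against 8.51, 8.26 and 8.31 in old WT arrays, and fell by 1.91 (adjusted p = 1.20e-06). For both genes the arrays lie far apart, and for 6 of the 7 members every old Zmpste24 deficient array was under every old WT array, as for 15.8% of all genes. Gpnmb ran from 7.54 to 8.23 in old Zmpste24 deficient saline arrays, against 10.82 to 10.92 in old WT saline arrays, and Mmp12 from 6.82 to 7.81 in old Zmpste24 deficient arrays, against 9.57 to 10.36 in old WT arrays. Of 8 ciliated cell genes 3 fell, and the part of these cells in the result was not tested.

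Among the keratins, Krt19 fell by 1.05 (adjusted p = 0.000242), Krt8 fell by 0.89 (adjusted p = 0.000151), Krt18 fell by 0.88 (adjusted p = 0.00169) and Krt7 fell by 0.52 (adjusted p = 0.0143). The Krt7 call was lost without old Zmpste24 deficient replicate 3 (-0.35, adjusted p = 0.110) or old WT replicate 3 (-0.44, adjusted p = 0.0813). With set as a fixed term, estimated from the young Zmpste24 deficient saline lungs alone and added after seeing the data, 3 of the 6 calls held: Sprr1a (-2.43), Cldn4 (-1.77) and Krt8 (-0.93). The young lungs that set this term differ in squamous RNA between the sets, with Sprr1a at 6.52, 8.73 and 8.09 in set 1 and 8.19, 8.39 and 8.55 in set 2, so for Sprr1a set and squamous RNA cannot be told apart in this fit. They also differ in Zmpste24, at 5.62, 7.55 and 5.29 in set 1 and 6.09, 7.60 and 7.93 in set 2. For no member does the term separate genotype from age. In this fit Krt7 had -0.39 (adjusted p = 0.346), Krt18 had -0.91 (adjusted p = 0.0533) and Krt19 had -0.82 (adjusted p = 0.0790). Between old Zmpste24 deficient and 16-week WT saline lungs, which lie in the same set, 0 of 7 members passed in limma (0.00902% of all genes did, and 1 member had an unadjusted p under 0.05). There Sprr1a differed by 0.01 (95% interval -0.93 to 0.94) and Cldn4 by -0.13 (95% interval -0.56 to 0.30).

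**Figure D2:**
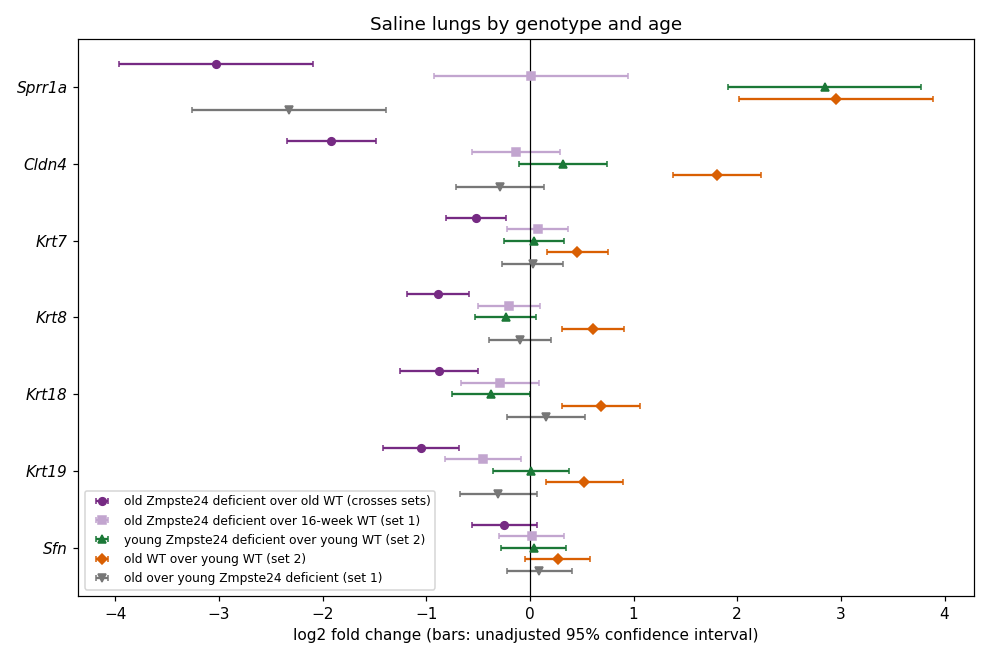
Log2 fold change of the 7 genes between saline lungs (points, limma estimates; bars, unadjusted 95% confidence intervals), for 3 genotype and 2 age comparisons. Sprr1a and Cldn4 lie at -3.03 and -1.91 in old Zmpste24 deficient against old WT lungs, and close to 0 in old Zmpste24 deficient against 16-week WT lungs.

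The next question was how bleomycin changed these genes 21 days on, in 4 pairs of groups that each lie within a set. In 16-week WT lungs Sprr1a rose and no keratin passed. In young Zmpste24 deficient lungs Krt7, Krt8, Krt18 and Cldn4 rose and Sprr1a did not pass. In old Zmpste24 deficient lungs only Cldn4 rose, and in old WT lungs Sprr1a, Krt8, Krt18 and Cldn4 were lower with bleomycin than with saline. Sfn passed in none of the 4.

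In 16-week WT lungs Sprr1a had 8.81, 7.94 and 8.43 in bleomycin arrays, against 5.2, 5.70 and 5.45 in saline arrays. Each injured lung lay more than 2 log2 units above each saline lung, and Sprr1a rose by 2.94 (standard error 0.46, adjusted p = 0.00128), 7.68-fold, and passed under all 15 alternatives. It was the only one of 7 members to pass, where 0.721% of all genes did. Cldn4 had 7.31, 6.59 and 7.26 in bleomycin arrays and 6.68, 6.46 and 6.58 in saline arrays, with a difference of 0.48 (adjusted p = 0.435). Replicate 2 was the lowest of the bleomycin arrays in 5 of the 7 members, and without it no keratin came to pass. Krt4 stood at 5.72, 5.26 and 5.30 in these bleomycin arrays, against 4.94, 5.68 and 4.65 in saline arrays, so Sprr1a was high there with Krt4 at the level of other lungs. Of 20 squamous genes 1 rose, again Tgm1 (0.76, adjusted p = 0.0455).

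In young Zmpste24 deficient lungs 4 of 7 members rose with bleomycin, where 4.73% of all genes passed and 2.51% passed as higher. Of the set 2 saline arrays used here, replicates 2 and 3 had Zmpste24 near the WT level (7.60 and 7.93). Replicate 1 had 6.09, and the bleomycin arrays had 5.78, 6.37 and 6.21. Against saline replicate 1 alone, a fit added after seeing the data, the differences were 0.56 for Krt7, 0.51 for Krt8, 0.56 for Krt18 and 0.69 for Cldn4. Krt7 had 8.94, 8.79 and 8.87 in bleomycin arrays, against 8.30, 8.32 and 8.35 in the saline arrays of set 2, and rose by 0.54 (adjusted p = 0.0220). Krt8 had 9.03, 8.85 and 8.94 in bleomycin arrays, against 8.44, 8.40 and 8.34 in saline arrays, and rose by 0.55 (adjusted p = 0.0230). Krt18 had 8.61, 8.53 and 8.55 in bleomycin arrays, against 8.0, 7.96 and 7.67 in saline arrays, and rose by 0.68 (adjusted p = 0.0246). Each of these keratins had 2 clearly separate groups of arrays, as did Krt19, whose difference of 0.52 did not pass (adjusted p = 0.107). Arrays were apart in this direction for 5 of the 7 members and 15% of all genes.

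Cldn4 had 7.61, 7.95 and 7.41 in young Zmpste24 deficient bleomycin arrays, against 6.97, 6.75 and 6.89 in saline arrays, and rose by 0.79 (adjusted p = 0.0227). Sprr1a had 8.42, 8.36 and 8.30 in bleomycin arrays and 8.19, 8.39 and 8.55 in saline arrays, a difference of -0.02 (95% interval -0.95 to 0.92). These saline arrays carry squamous RNA, as described below, and the bleomycin arrays do not: Krt4 stood at 4.96, 5.39 and 5.07 in bleomycin arrays, against 11.81, 11.68 and 11.40 in saline arrays. The saline level of Sprr1a in this comparison is thus measured together with squamous RNA. There 9 of 20 squamous genes fell, as did 6 of 9 cardiac muscle genes, where 4.73% of all genes passed. Against set 1 replicate 1 alone, the young Zmpste24 deficient saline array with the least squamous RNA (Krt4 6.22), Sprr1a differed by 1.84 (adjusted p = 0.126) and Cldn4 by 0.90 (adjusted p = 0.175), across the sets and with that array assumed to vary like the other groups. The 4 calls rest on all arrays: between 0 and 2 of them passed when 1 array was left out (0 without saline replicate 2 or 3 or bleomycin replicate 1), with fold changes that moved little, 0.64 to 0.91 for Cldn4 over all alternatives.

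In old Zmpste24 deficient lungs Sprr1a had 6.32, 6.31 and 7.08 in bleomycin arrays, against 5.12, 5.89 and 5.36 in saline arrays. The groups do not overlap, as for 3 of the 7 members and 12.7% of all genes in this direction, but the difference of 1.11 (standard error 0.46) did not pass (adjusted p = 0.118). Cldn4 had 7.00, 7.21 and 7.16 in bleomycin arrays, against 6.07, 6.39 and 6.87 in saline arrays, and rose by 0.68 (adjusted p = 0.0354). It was 1 of 7 members to pass, where 10.6% of all genes did, and it was lost without any 1 of 5 of the 6 arrays (0.49, adjusted p = 0.132, without saline replicate 1; 0.89, adjusted p = 0.00994, without saline replicate 3, the array that correlated least with the others). Krt19 had 8.03, 7.95 and 8.19 in bleomycin arrays and 7.67, 7.91 and 7.08 in saline arrays, with a difference of 0.51 (adjusted p = 0.0682). The difference was 0.69 (adjusted p = 0.0139) without saline replicate 2 and 0.27 (adjusted p = 0.420) without saline replicate 3. It passed under 1 of 15 alternatives. Krt8 stood at 8.43 ± 0.04 in bleomycin and 8.34 ± 0.29 in saline lungs.

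In old WT lungs the direction was the opposite. Of the 7 members 4 fell with bleomycin, where 1.01% of all genes passed and 0.505% passed as lower. Sprr1a had 8.02, 5.96 and 5.49 in bleomycin arrays, against 8.36, 8.61 and 8.48 in saline arrays, and fell by 2.00 (standard error 0.46, adjusted p = 0.0259). The saline arrays are again those by which the study lists Sprr1a, so its call among the 4 is no independent test. Bleomycin replicate 1 stood near the saline arrays, and it was the highest of its group in 6 of the 7 members. Cldn4 had 7.41, 6.71 and 6.47 in bleomycin arrays, against 8.51, 8.26 and 8.31 in saline arrays, and fell by 1.5 (adjusted p = 0.000302), 2.83-fold. This was the one call of the 4 that held when any 1 array was left out.

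Krt8 fell by 0.61 (adjusted p = 0.0366) and Krt18 fell by 0.74 (adjusted p = 0.0417) in old WT bleomycin lungs, and Krt7 had a difference of -0.51 (adjusted p = 0.0853). For 6 of the 7 members every bleomycin array lay under every saline array, as for 9.71% of all genes. The calls of Sprr1a, Krt8 and Krt18 were lost without any 1 saline array and without bleomycin replicate 2 or 3, with adjusted p of 0.0844 to 0.203 for Sprr1a. Without bleomycin replicate 1 Sprr1a fell by 2.76 (adjusted p = 0.000283). The old WT bleomycin arrays held Mmp12, the macrophage elastase, at 9.39, 10.79 and 10.82, and the old WT saline arrays held it at 10.36, 10.23 and 9.57, so the saline arrays of this comparison carry this macrophage gene at the level of the bleomycin arrays. Its part in the result was not tested.

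**Figure D3:**
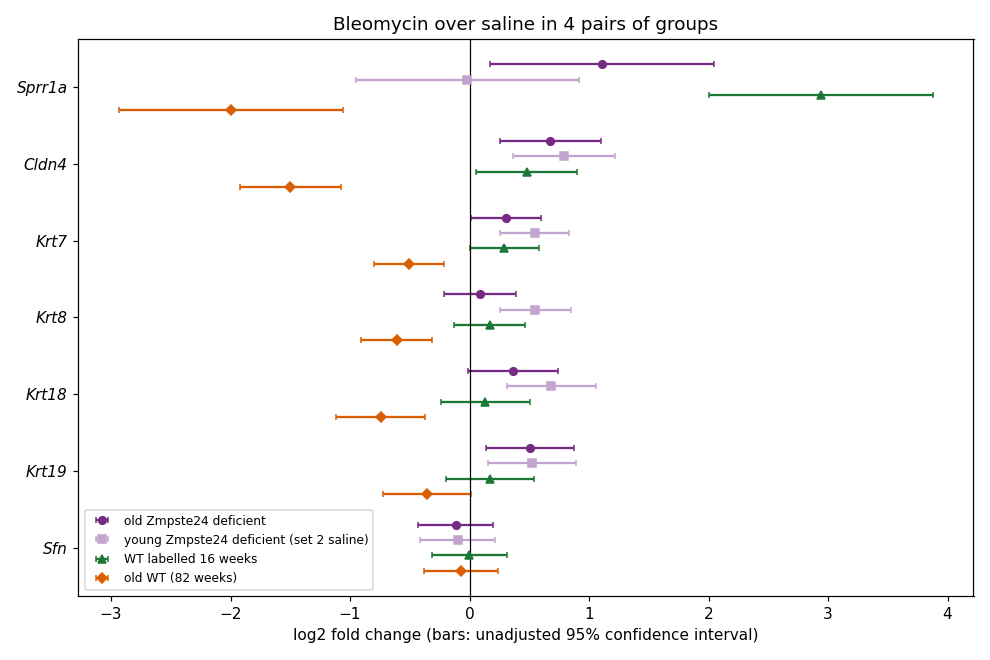
Log2 fold change with bleomycin of the 7 genes in 4 pairs of groups (points, limma estimates; bars, unadjusted 95% confidence intervals). Sprr1a lies at 2.94 in 16-week WT and at -2.00 in old WT lungs, and Cldn4 is positive in all but the old WT lungs, where it lies at -1.5.

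Whether the bleomycin effects differ between groups was tested directly. The effect in old WT minus that in 16-week WT lungs was negative for all 7 members and passed for 4, where 2.05% of all genes passed. It was -4.94 for Sprr1a (standard error 0.64, adjusted p = 0.000125), -1.98 for Cldn4 (adjusted p = 0.000416), -0.80 for Krt7 (adjusted p = 0.0316) and -0.78 for Krt8 (adjusted p = 0.0431). The effect in old Zmpste24 deficient minus that in old WT lungs passed for 4, all positive, where 1.39% of all genes passed: Sprr1a (3.11, adjusted p = 0.0137), Cldn4 (2.18, adjusted p = 0.000306), Krt18 (1.11, adjusted p = 0.0293) and Krt7 (0.82, adjusted p = 0.0372). In the second difference genotype and age (16 and 82 weeks by the labels) change together. Both differences share the old WT effect. Its saline arrays are those by which the study lists Sprr1a, so the calls of Sprr1a are not independent of that listing. The keratin calls were lost without most single arrays, and that of Sprr1a in the second difference was lost without old Zmpste24 deficient bleomycin replicate 3 (2.85, adjusted p = 0.0553) or old WT bleomycin replicate 2 (2.84, adjusted p = 0.0564). The effect in old Zmpste24 deficient minus that in 16-week WT lungs, all within set 1, passed for 0 of 7 in limma, where 4.37% of all genes passed and 1 member had an unadjusted p under 0.05. It was -1.83 for Sprr1a (95% interval -3.15 to -0.51, adjusted p = 0.104) and 0.20 for Cldn4 (95% interval -0.40 to 0.80).

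Injured lungs of both genotypes were then set side by side. Between old Zmpste24 deficient and 16-week WT bleomycin lungs, both in set 1, Sprr1a was the 1 member of 7 to pass, where 15.8% of all genes did. It had 6.32, 6.31 and 7.08 in old Zmpste24 deficient bleomycin arrays, against 8.81, 7.94 and 8.43 in 16-week WT bleomycin arrays, and fell by 1.82 (adjusted p = 0.00575). Macrophage genes moved with this comparison: Mmp12 ran from 6.42 to 6.82 in old Zmpste24 deficient bleomycin arrays, against 9.59 to 10.95 in 16-week WT bleomycin arrays, and Gpnmb from 8.65 to 9.26 in old Zmpste24 deficient arrays, against 9.87 to 10.92 in WT arrays. Their part in the result was not tested. Cldn4 differed by 0.07 (95% interval -0.36 to 0.49). Krt8 differed by -0.28 (95% interval -0.58 to 0.02), with every old Zmpste24 deficient array just under every WT array. Old Zmpste24 deficient and old WT bleomycin lungs lie in different sets and differ in age (16 and 82 weeks by the labels). Genotype, set and age thus cannot be told apart between them. In this comparison 0 of 7 members passed in limma, where 14.1% of all genes did and 1 member, Krt7, had an unadjusted p under 0.05. There Sprr1a differed by 0.08 (95% interval -0.86 to 1.01), and by 0.85 (adjusted p = 0.197) without old WT replicate 1.

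The young saline lungs need the squamous genes beside Sprr1a. Of the 6 young Zmpste24 deficient saline arrays 5 carry much squamous RNA and 1 carries far less. Krt4, a keratin of the layers above the base of squamous epithelium, stood at 6.22, 11.64 and 11.82 in replicates 1 to 3 of set 1 and at 11.81, 11.68 and 11.40 in those of set 2, against 4.85, 5.13 and 4.91 in young WT saline arrays. Krt13, its partner keratin, stood at 5.75, 10.06 and 10.32 in set 1 and at 9.65, 9.77 and 10.06 in set 2, against 5.38, 5.45 and 5.48 in young WT arrays. Thus set 1 replicate 1 is the array with little of this RNA, although its Krt4 was still above that of all 24 arrays of the other 8 groups, which reached 5.72.

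Sprr1a followed the same arrays. It had 6.52, 8.73 and 8.09 in the young Zmpste24 deficient saline replicates 1 to 3 of set 1 and 8.19, 8.39 and 8.55 in those of set 2, against 6.05, 5.10 and 5.46 in young WT saline arrays. Sprr3, a squamous member of the same family, had 4.58, 7.76 and 8.27 in set 1 and 8.05, 7.83 and 7.61 in set 2, against 3.65, 4.07 and 3.58 in young WT arrays. Over the 24 arrays of the other groups Sprr3 stayed between 3.42 and 4.15 while Sprr1a ran from 5.10 to 8.81, so the 4.58 of set 1 replicate 1 was above them too, and high Sprr1a was found both in arrays with much squamous RNA and in arrays with Sprr3 at its lowest levels. Sprr1b, another gene of that family, differed less, with 6.11 to 6.49 in the 5 squamous arrays and 5.25 in set 1 replicate 1.

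The keratins and Cldn4 differed little between the 5 young Zmpste24 deficient saline arrays with much squamous RNA and the 1 with little. Krt8 lay between 8.34 and 8.46 in the 5 arrays with it and at 8.43 in set 1 replicate 1, and Cldn4 lay between 6.64 and 6.97 in the 5 and at 6.76 in that replicate. Krt7 lay between 8.12 and 8.35 in the 5 and at 8.25 in that replicate, and Sfn between 7.73 and 8.18 in the 5 and at 7.51 in it. In the 5 arrays Sprr1a ran from 8.09 to 8.73, against 6.52 in that replicate, a difference that was not tested. The 3 arrays with Zmpste24 near the WT level, set 1 replicate 2 and set 2 replicates 2 and 3, were also the 3 with high Ucp1, a brown fat gene (8.78, 8.72 and 9.13), where the remaining young Zmpste24 deficient saline arrays had 5.46 to 6.01. The squamous RNA is not limited to them.

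**Figure D4:**
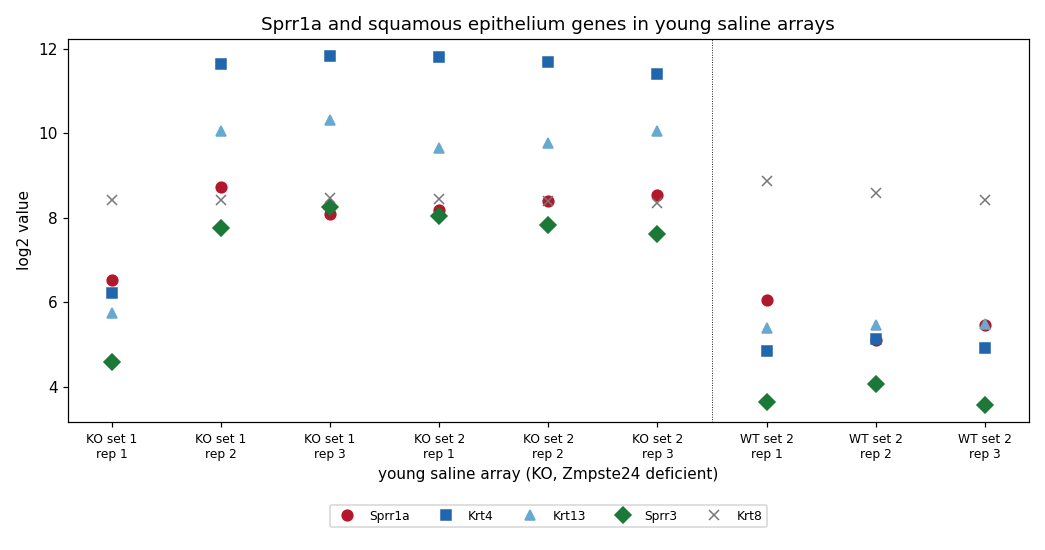
Log2 value of Sprr1a, Krt4, Krt13, Sprr3 and Krt8 in each young saline array, with the 6 Zmpste24 deficient arrays on the left of the dotted line and the 3 WT arrays on the right. Krt4 is at 11.4 to 11.82 and Sprr1a at 8.09 to 8.73 in 5 of the 6 Zmpste24 deficient arrays, while Krt8 runs from 8.34 to 8.46 in all 6 and stands at 8.87, 8.59 and 8.41 in the WT arrays.

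In the test of genotype in young saline lungs, within set 2, Sprr1a was 1 of 7 members to pass, where 2.88% of all genes did, and rose by 2.84 (standard error 0.46, adjusted p = 0.000434) in young Zmpste24 deficient over young WT lungs. In the same comparison 11 of 20 squamous genes rose, Krt4 by 6.67 and Krt13 by 4.39, 4 of 7 basal cell genes rose, and 6 of 8 ciliated cell genes fell (median -0.80). The part of these cells in the result was not tested. With set 2 replicate 1, the one saline array of that set with low Zmpste24, as the only Zmpste24 deficient array, Sprr1a differed by 2.66, which rests on that 1 array. Cldn4 differed by 0.32 (95% interval -0.11 to 0.74) and Krt8 by -0.23 (95% interval -0.53 to 0.06) over the 3 arrays a group. For age in Zmpste24 deficient saline lungs, within set 1, 0 of the 6 members other than Sprr1a passed in limma, none at an unadjusted p under 0.05 either, where 1.83% of all genes passed. Sprr1a, described without a p-value, had 5.12, 5.89 and 5.36 in old arrays, against 6.52, 8.73 and 8.09 in young arrays. The difference was -2.32 over all 3 young arrays and -1.06 against replicate 1 alone, the young array with the least squamous RNA, while 6 of 20 squamous genes fell.

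Sfn passed in none of the 14 comparisons. Its array values ran from 7.51 to 8.28 over all 30 arrays, and the group means from 7.78 in old Zmpste24 deficient bleomycin to 8.14 in old WT saline lungs. The widest difference in a pair was -0.29 (adjusted p = 0.218), in old Zmpste24 deficient against old WT bleomycin lungs. Of 12 other p53 targets measured, 8 rose in old against young WT saline lungs, where 8.12% of all genes passed. With bleomycin 5 of the 12 rose in old Zmpste24 deficient lungs (10.6% of all genes passed), 1 rose in 16-week WT lungs (0.721%), 2 rose and 1 fell in young Zmpste24 deficient lungs (4.73%), and 1 fell in old WT lungs (1.01%). Their median log2 fold changes differed less than these counts in the first 3 pairs, at 0.45, 0.47 and 0.45 in this order, and the median was -0.34 in old WT lungs. No difference from Sfn was tested. Cdkn1a, the p53 target that arrests the cell cycle, rose by 1.45 (adjusted p = 0.0175) with age in WT lungs and by 1.29 (adjusted p = 0.0327) with bleomycin in old Zmpste24 deficient lungs. Its bleomycin difference did not pass in 16-week WT (1.15, adjusted p = 0.213), young Zmpste24 deficient (1.23, adjusted p = 0.0670) or old WT lungs (-0.67, adjusted p = 0.559). Mdm2, which degrades p53, rose by 1.01 (adjusted p = 0.00417) with bleomycin in old Zmpste24 deficient lungs. None of 6 other 14-3-3 genes passed with bleomycin in any pair of groups.

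Further genes of the transitional state were read from a list of 18, of which 15 were measured. With age in WT saline lungs 8 rose and 0 fell, with a median log2 fold change of 0.66, where the median over all genes was 0.01 and 8.12% of all genes passed. Lgals3 (galectin-3), a lectin of injured epithelium and of macrophages, rose by 1.40 (adjusted p = 7.67e-06), Tnfrsf12a, the receptor of TWEAK, by 1.07 (adjusted p = 0.000967) and Ereg, an EGF receptor ligand, by 1.17 (adjusted p = 0.000320). In old Zmpste24 deficient against old WT saline lungs 11 fell and 0 rose, with Ndnf at -1.55, Ccnd1 (cyclin D1) at -1.50 and Clu (clusterin) at -1.47, where 13.7% of all genes passed. The list mean was lowest in old Zmpste24 deficient saline replicate 3, the array that correlated least with the others. It had 7.42 there, against 7.95 and 7.95 in replicates 1 and 2 and 8.76 to 8.77 in old WT saline arrays. With bleomycin 3 of 15 rose in old Zmpste24 deficient (10.6% of all genes passed) and 3 in young Zmpste24 deficient lungs (4.73%). In 16-week WT lungs 2 rose (0.721%), and in old WT lungs 1 fell (1.01%). Between bleomycin lungs, 1 was higher and 8 were lower in old Zmpste24 deficient than in 16-week WT lungs (15.8% of all genes passed). In old Zmpste24 deficient against old WT bleomycin lungs 6 were lower (14.1%). The 2 that rose with bleomycin in 16-week WT lungs were Lgals3 (1.01, adjusted p = 0.00316) and Ndnf (1.44, adjusted p = 0.0366). In bulk RNA several of these genes are also made by macrophages and fibroblasts.

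Areg itself was not measured, but its relatives were. Of 12 EGF family ligands, receptors and sheddases, 3 rose with age in WT saline lungs, where 8.12% of all genes passed: Ereg, Hbegf (0.98, adjusted p = 0.00192) and Adam17 (0.62, adjusted p = 0.0427), the protease that frees such ligands. The same 3 were lower in old Zmpste24 deficient than in old WT saline lungs, at -1.17 for Ereg, -1.14 for Hbegf and -0.66 for Adam17. There 13.7% of all genes passed, and the old WT saline arrays are shared by both comparisons. With bleomycin 0 of 12 rose in any pair of groups, where 0.721% to 10.6% of all genes passed, and Ereg fell in old WT lungs (-0.83, adjusted p = 0.0371).

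Against 8.12% of all genes, 6 of 14 genes of gp130 cytokines and AP-1 passed with age in WT saline lungs, all of them higher in old lungs. These included the cytokine Il6 (1.07, adjusted p = 0.000406), Socs3, the brake on its signal (1.06, adjusted p = 3.31e-05), and Atf3, a stress factor that pairs with AP-1 proteins (0.92, adjusted p = 4.04e-05). With bleomycin in old WT lungs 5 fell (1.01% of all genes passed), among them Il6 (-0.95), Atf3 (-0.80) and Socs3 (-0.76). Fos, a subunit of AP-1, rose with bleomycin in old Zmpste24 deficient lungs by 1.13 (adjusted p = 9.27e-05) and in young Zmpste24 deficient lungs by 1.04 (adjusted p = 0.000256).

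Other epithelial genes moved in both directions. Over all genes 8.12% passed with age in WT saline lungs and 13.7% in old Zmpste24 deficient against old WT saline lungs. Of 9 club and goblet cell genes, 1 rose and 1 fell in old Zmpste24 deficient against old WT saline lungs, and 0 rose and 5 fell with age in WT saline lungs, with a median of -0.71. Of 14 measured tight junction and adhesion genes beside Cldn4, 0 rose and 2 fell with age in WT saline lungs, and 1 rose and 1 fell in old Zmpste24 deficient against old WT saline lungs. Epcam, the pan-epithelial adhesion protein, ranged from 7.75 to 8.51 over all arrays. Of 11 type 2 cell genes 0 passed in either of these 2 comparisons. Of 10 type 1 cell genes, 1 rose and 3 fell with age in WT saline lungs, Rtkn2 by -0.98 (adjusted p = 6.41e-05), and 3 rose and 2 fell in old Zmpste24 deficient against old WT saline lungs. Of 8 ciliated cell genes, 1 fell with age. Mesothelial genes, which can also carry simple keratins, passed in neither (0 of 8), with list means of 7.24 to 7.30 in old WT saline and 6.16 to 7.67 in young WT saline lungs.

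The genes whose 10 group means lay closest to those of each member were listed by the root mean square difference of centred means (log2), among 2424 genes with a span of at least 1 (2425 for members of a smaller span). For Sprr1a these were Chl1 (0.62), Fn1 (0.67), Tnc (0.73), P4ha3 (0.74) and Ndnf (0.75). For Cldn4 they were Thbs1 (0.24), Serpinb9b, Sectm1b, Eda2r and Tnfrsf12a (0.26). Krt8 was most like Sbno2 (0.11) and Myd88 (0.11), Krt18 most like Ier3 (0.10) and Usp18 (0.13), Krt19 most like Porcn (0.08) and Il1r1 (0.10), Krt7 most like Gfpt2 (0.15) and Ccn2 (0.16), and Sfn, of the small span, most like Arhgdib (0.16). Between members the closest were Krt8 and Krt19 (0.14) and Krt8 and Krt18 (0.15), and the most distant were Sprr1a and Sfn (1.25). Likeness over 10 means is a description.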

How the data were processed

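Whole lung RNA was measured on Mouse Gene 2.0 ST arrays (Affymetrix), and the authors used R and limma. The deposited values are log2 probe set summaries (the authors' background correction, normalization and versions: not given in the sources used here). They were used as deposited. GEO's platform table lists 41345 probe sets, with a single gene for 23521, more than 1 for 1820 and no gene for 16004. The probe set of each gene with the highest mean was used, which left 22180 genes.

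Group means over all 30 arrays were fitted in limma 3.58.1 (R 4.3.3), with moderated spread and Benjamini-Hochberg adjustment over all genes, a call being an adjusted p under 0.05. Tables and figures were made in python 3.11.15 with pandas 2.3.3, numpy 2.4.6 and matplotlib 3.10.9. The members and gene lists, including those of other cell types, were chosen with earlier results of these data known. All members were named, Krt4 and Krt13 as squamous markers, up to 4 called genes of the largest change per list and comparison, and the 5 genes most like each member. Gpnmb, Mmp12, Sprr3, Sprr1b, Epcam, Ucp1, Tgm1 and Zmpste24 were added after their values were seen. Promoters were taken from RefSeq (GRCm38.p6), in which 7 of 8 members had an entry. No array was left out, and 3 arrays per group limit the precision. Tested on simulated data for bleomycin in old Zmpste24 deficient lungs (22180 genes), the fit called 13, 42, 49 and 50 of 50 genes changed by 0.5, 1, 2 and 3 (log2), and 8 unchanged ones. Alternatives were other normalizations, a filter on dim genes (mean under 5.2, 16615 genes kept), probe set means, other variance models, array weights, fits of the groups compared, replicate blocks, set terms, other young controls and each array left out.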

Additional observations from a re-analysis of the deposited data

Results flagged for a closer look

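The bleomycin effect of several members differed between groups in a direct test in limma over all genes. The effect in old Zmpste24 deficient minus that in old WT lungs was 3.11 for Sprr1a (adjusted p = 0.0137), 2.18 for Cldn4 (adjusted p = 0.000306), 1.11 for Krt18 (adjusted p = 0.0293) and 0.82 for Krt7 (adjusted p = 0.0372). The effect in old WT minus that in 16-week WT lungs was -4.94 for Sprr1a (adjusted p = 0.000125), -1.98 for Cldn4 (adjusted p = 0.000416), -0.80 for Krt7 (adjusted p = 0.0316) and -0.78 for Krt8 (adjusted p = 0.0431). Old Zmpste24 deficient and old WT lungs differ in age as well as genotype (16 and 82 weeks by the labels). Both differences use the old WT lungs, whose 3 saline arrays had Sprr1a at 8.36, 8.61 and 8.48, and the age label of the 16-week WT lungs is in doubt. The study lists Sprr1a for its difference with age in these saline arrays, so its p-values here are not independent of that listing.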

How the results depend on the processing

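No single value of a member changed sign against a called value under any alternative: of 1659 values recomputed, 1513 kept their side of the threshold, 122 lost it and 24 came past it. Counts below are of 7 members past the threshold, and for both age comparisons they include Sprr1a, which was listed by the study for these differences, so that its part in them is no test; for age in Zmpste24 deficient lungs it is the whole count. With quantile normalization the count in old Zmpste24 deficient lungs with bleomycin was 0. With only the groups compared in the fit, which leaves fewer arrays to estimate the spread, it was 0 for bleomycin in old Zmpste24 deficient lungs, 1 for bleomycin in old WT lungs, 0 for age in Zmpste24 deficient saline lungs, 2 for genotype in old saline lungs, and for the differences of bleomycin effects 1 (old Zmpste24 deficient minus 16-week WT), 1 (old Zmpste24 deficient minus old WT) and 2 (old WT minus 16-week WT). With a lone young array (set 1 replicate 1, or set 2 replicate 1; for bleomycin the second was added after seeing the data) it was 0 for bleomycin in young Zmpste24 deficient lungs under either, 0 for age in Zmpste24 deficient lungs and 0 for genotype in young lungs. Array weights gave 1 for genotype in old bleomycin lungs, and set as a fixed term, added after seeing the data, gave 3 for genotype in old saline lungs. The cause of these changes was otherwise not tested.

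With each array left out in turn the count ran from 2 to 5 for age in WT lungs, 0 to 1 for age in Zmpste24 deficient lungs (0 without young set 1 replicate 2), 0 to 1 for bleomycin in old Zmpste24 deficient, 1 to 5 in old WT and 0 to 2 in young Zmpste24 deficient lungs, 5 to 6 for genotype in old saline lungs, 1 to 6 for old Zmpste24 deficient minus old WT and 2 to 5 for old WT minus 16-week WT. It stayed at 1 for bleomycin in 16-week WT lungs, for genotype in young saline lungs and for old Zmpste24 deficient against 16-week WT bleomycin lungs. Whether replicate numbers pair the arrays could not be settled from 3 pairs of deviations per comparison, which correlated between -0.382 and 0.280. All 3 were positive for genotype in old saline lungs (0.0776, 0.252 and 0.263), genotype in old bleomycin lungs and age in Zmpste24 deficient saline lungs. All 3 were negative for bleomycin in old Zmpste24 deficient lungs and for old Zmpste24 deficient against 16-week WT saline lungs. With the replicate block the calls over all genes were 1672 against 1802 for age in WT lungs and 123 against 160 for bleomycin in 16-week WT lungs, and among members it changed 1 call, Krt8 in old Zmpste24 deficient minus old WT (0.70, adjusted p = 0.0472). Centring on array medians gave 90 higher and 143 lower genes for bleomycin in old WT lungs, where the values as deposited gave 111 and 112. With 3 arrays a group, differences under about 1 (log2) were often missed in the simulated data.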
